A study of Rattus norvegicus with 8 samples.

Results

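The ZFP36 family genes followed here are Zfp36 (tristetraprolin), Zfp36l1 and Zfp36l2, whose cytoplasmic proteins carry tandem CCCH zinc fingers and mark selected mRNAs for destruction. The 3 genes were selected by family name with the difference between treated and untreated arrays already known, and every probe named for them on the array was kept, which gave 3 of 15448 gene symbols and 4 of 41012 probes. Zfp36l3, which also bears the family name, was not among them and is counted below with other RNA-binding proteins. Zfp36 and Zfp36l1 have 1 probe each and Zfp36l2 has 2. Primary thymocytes were taken from adrenalectomized male Sprague-Dawley rats, with the thymi of 3 rats pooled, and were cultured in medium with 10% heat-inactivated serum. The Control group (4 arrays) received no steroid and the Dex group (4 arrays) received 100 nM dexamethasone, a synthetic glucocorticoid, for 6 hours. Total RNA was used to make complementary RNA (cRNA) labeled with Cy3, which was hybridized to whole-genome rat oligonucleotide arrays of 1 color. All cells were from rats without adrenal glands, so neither group had an adrenal source of endogenous steroid before culture. The labels do not state whether the 4 arrays of a group came from separate pools of animals, and the methods name fewer biological replicates than the labels name arrays, so the errors and p-values below measure the spread between these arrays, which may be technical.

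The zinc fingers of these proteins bind AU-rich elements, stretches of repeated ATTTA in the 3′ end of short-lived mRNAs such as those of cytokines and immediate early genes. The bound protein recruits the CCR4-NOT deadenylase, and the mRNA then loses its poly(A) tail, its cap and finally its body. The kinase MK2, which acts downstream of p38, phosphorylates tristetraprolin, and phosphorylated tristetraprolin is held by 14-3-3 proteins and recruits the deadenylase poorly. In thymocytes Zfp36l1 and Zfp36l2 are known for restraining proliferation during the development of T cells, and their joint loss leads to T cell leukemia in mice.

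The array measured each gene through 60-base probes, whose first 30 bases are printed here because the probe is what each value stands for, and probe 2 of Zfp36l2 is printed whole because its position in the genome is longer than the probe. Capitals mark ATTTA.
Zfp36: ATTTAtgacgactttATTTAttgtaataag
Zfp36l1: ctccttaggcctttcacaggtaggactgag
Zfp36l2 probe 1: gacactgccgcaggccgactttaaggcccc
Zfp36l2 probe 2: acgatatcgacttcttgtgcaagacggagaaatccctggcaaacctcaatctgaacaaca
Per the scanner files, in build rn3, the Zfp36 probe lies at chr1:83564899-83564958, the Zfp36l1 probe at chr6:103123082-103123141 and probe 1 of Zfp36l2 at chr6:7532694-7532753, all on the minus strand. Probe 2 of Zfp36l2 spans chr6:7534174-7534727, 554 bases of genome for 60 bases of probe. The exon and UTR positions of the probes were not assigned here. No sequence of these 4 probes occurs in another probe of the array, and no pair of them shares a run longer than 8 bases, so the members were read by distinct sequences. The RefSeq table also lists a Zfp36l2 pseudogene, which was not compared with the probes. The Zfp36 probe holds 3 copies of ATTTA, the letters that the family itself binds. ATTTA occurs in 7.61% of all probes, and 3 or more copies occur in 17 probes (0.0415%). With a GC content of 20% this probe is also among the 215 probes of the array with GC of 20% or less.

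The arrays carried between 24908 and 34472 probes well above background, with the fewest on Dex replicates 1 and 2, and no spot was saturated. Slide 1 held Control replicate 1 and Dex replicate 3, slide 2 the other Control arrays and slide 3 the other Dex arrays, so only slide 1 allows a comparison within a slide. Cells of the T lineage were well represented, with 11 of 13 markers on the array, each well above background on all 8 arrays. Of the 11 T lineage markers none passed limma's adjusted threshold between Dex and Control. An unadjusted p under 0.05 was found for 3 of them (27.3%, against 12.0% of all gene symbols), 1 higher and 2 lower in Dex. The array measures RNA of the whole culture, in which fewer cells of a type and less RNA per cell cannot be told apart.

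Zfp36l2 gave the clearest difference of the family. At probe 1 the quantile-normalized log2 signal was 12.93, 12.42, 12.93 and 12.80 in Control replicates 1 to 4, and 15.85, 15.70, 16.36 and 16.29 in Dex replicates 1 to 4. Every Dex array was above every Control array, and the nearest arrays of the groups were 2.78 log2 units apart. The means were 12.77 ± 0.24 in Control and 16.05 ± 0.32 in Dex (SD, n = 4), a log2 difference of 3.28 (SE 0.21), or 9.73-fold.

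Probe 2 of Zfp36l2, in another stretch of the transcript, was dimmer and moved the same way. Its log2 signal was 5.71, 5.51, 5.64 and 5.80 in Control and 9.46, 9.68, 9.06 and 9.46 in Dex, in order of replicate. The groups again did not overlap, with a gap of 3.26, and the mean went from 5.67 ± 0.12 to 9.41 ± 0.26 (SD, n = 4). The log2 difference was 3.75 (SE 0.18), or 13.4-fold. Correction of the background with normexp, which raises dim signals, lowered this difference to 2.43, whereas it left probe 1 at 3.29. The size of the Zfp36l2 difference at probe 2 therefore rests on how the background of a dim Control signal is handled. Within arrays, the log2 ratio of probe 1 to probe 2 was 7.07 ± 0.22 in Control and 6.66 ± 0.26 in Dex (SD, n = 4), from the background-subtracted signal. On that signal probe 2 responded more by 0.41, which was small beside the response of either. Under normexp the order was the opposite, with 3.29 at probe 1 and 2.43 at probe 2.

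Zfp36l1 stood on the other side of 0. Its log2 signal was 13.11, 12.84, 13.06 and 13.04 in Control replicates 1 to 4, and 12.12, 12.04, 12.25 and 12.10 in Dex replicates 1 to 4. The lowest Control array was 0.60 above the highest Dex array, and after quantile normalization the arrays within each group lay close together. Scaled by the 75th percentile of each array, Dex replicates 1 to 4 were at 15.7, 15.8, 10.9 and 9.28 times that percentile, against 20.9 to 26.5 in Control. The means were 13.01 ± 0.12 and 12.13 ± 0.087 (SD, n = 4), a log2 difference of -0.88 (SE 0.14), or 1.84-fold lower in Dex.

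Zfp36, the founding member, was near the limit of detection at its probe. Its log2 signal was 3.70, 2.44, 2.52 and 3.70 in Control and 3.30, 3.51, 2.00 and 1.71 in Dex, and the groups overlapped. The scanner software called the probe well above background on 3 of 4 Control arrays (not on replicate 3) and on 0 of 4 Dex arrays. Its processed signal before normalization was 7.34 to 15.7 in Control and 3.76 to 5.53 in Dex, on arrays whose 75th percentile probe gave 264 to 428. The means of the log2 signal were 3.09 ± 0.71 and 2.63 ± 0.91 (SD, n = 4), a difference of -0.46 (SE 0.51). Since no Dex array measured it above background, the Dex level is known only as a bound, 3.41 on the log2 scale, which is above the Control mean, so no fold is given. Scaled by each array's 75th percentile instead, the groups did not overlap, with 0.0230 to 0.0366 of that percentile in Control and 0.0110 to 0.0197 in Dex, and the log2 difference was -0.97. Among the 215 probes with GC of 20% or less, 17.2% were well above background on all 8 arrays, against 58.5% of all probes. The part of probe composition in the low Zfp36 signal was not tested.

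**Figure D1:**
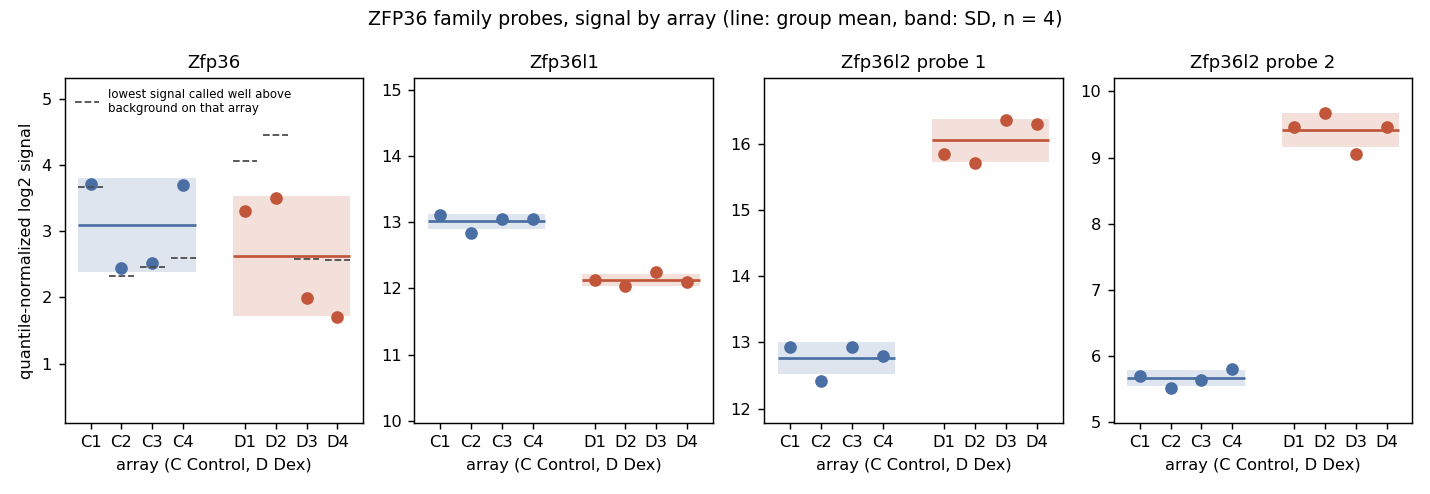
Quantile-normalized log2 signal of the 4 ZFP36 family probes on each array, C for Control and D for Dex replicates 1 to 4, with the group mean as a line and the SD as a band, and each panel spanning the same number of log2 units. The Dex arrays lie above the Control arrays by 3.28 and 3.75 at the Zfp36l2 probes and below them by a difference of -0.88 at Zfp36l1, while at Zfp36 the groups overlap near the dashed marks, the lowest signal called well above background on each array.

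These differences were read against the whole array as a description, since the same contrast was known when the genes were chosen. A moderated test (limma) with Benjamini-Hochberg adjustment over all 41012 probes called 319, or 0.778% of them, of which 231 were higher and 88 lower in Dex. Of the 4 family probes 3 were called, the probe of Zfp36l1 and both probes of Zfp36l2. With the replicate block 81 probes of the array were called, among them both probes of Zfp36l2 but not Zfp36l1, whose difference of -0.88 is the same in that fit. Quantile normalization gives every array the same distribution, so an overall shift between the groups could not be seen on this scale.

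Zfp36l2 changed upward relative to Zfp36l1 also where no scaling between arrays entered. The log2 ratio of the unnormalized signal of Zfp36l2 probe 1 to that of Zfp36l1 was -0.17, -0.42, -0.11 and -0.23 in Control and 3.72, 3.82, 4.07 and 4.23 in Dex, array by array. The ratio does not compare the amounts of both mRNAs, because probes differ in brightness, but its change between groups is free of array brightness. It shows that the probes changed unequally, not the direction of either. That change was 4.19 log2 units, or 18.3-fold, and the groups were far apart relative to their SD of 0.13 and 0.24 (n = 4).

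**Figure D2:**
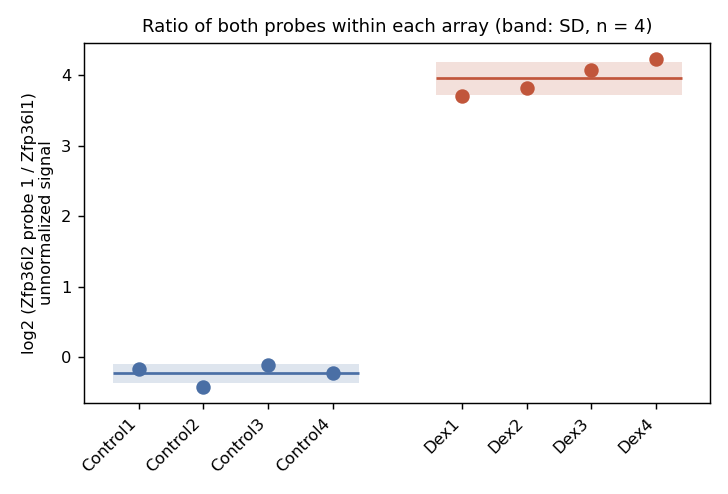
The log2 ratio of the unnormalized signals of Zfp36l2 probe 1 and Zfp36l1 on each of the 8 arrays, with the group mean as a line and the SD as a band (n = 4). The ratio lies between -0.42 and -0.11 on Control arrays and between 3.72 and 4.23 on Dex arrays, and only its change, not its level, can be interpreted.

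Each gene's own difference was also computed within each replicate number and on the single slide shared by both groups. Dex minus Control of the same replicate number was 2.92, 3.29, 3.43 and 3.50 for Zfp36l2 probe 1, and 3.75, 4.16, 3.42 and 3.66 for probe 2. For Zfp36l1 it was -0.98, -0.80, -0.81 and -0.94. For Zfp36, whose Dex signals were not above background, the quantile-normalized values gave -0.41, 1.07, -0.52 and -1.99, while scaled by the 75th percentile the Dex array was lower in each of the 4 pairs, so no direction is read from them. On slide 1 alone, Dex replicate 3 minus Control replicate 1 was 3.43 for Zfp36l2 probe 1, 3.35 for probe 2 and -0.86 for Zfp36l1, each from a single pair of arrays. On the same slide the Zfp36 difference was -1.71, at signals near background.

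The order of the Dex arrays at Zfp36l2 probe 1 depended on the scaling. After quantile normalization Dex replicates 1 and 2 averaged 15.78 at probe 1 and replicates 3 and 4 averaged 16.32. Scaled by the 75th percentile of each array, replicates 1 and 2 were at 206 and 222 times that percentile and replicates 3 and 4 at 184 and 174 times, the opposite order. At probe 2 replicates 1 and 2 were the higher pair on both scales, with quantile-normalized averages of 9.57 and 9.26 and with 2.16 and 2.61 against 1.42 and 1.78 times the 75th percentile. The probes thus shared an order with the 75th percentile scaling and not after quantile normalization, while every Dex array remained above every Control array at both probes under quantile normalization.

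Across 15 other ways of processing the data, the difference ranged from 3.18 to 3.43 for Zfp36l2 probe 1, from 2.43 to 3.96 for probe 2 and from -0.94 to -0.84 for Zfp36l1. For Zfp36 it ranged from -1.71 to -0.08 over 14 of them, as the probe was removed where dim probes were left out. Both Zfp36l2 probes passed limma's threshold, or that of the signal to noise statistic, in 15 of 16 alternatives, with the slide as a fixed block as the exception. Zfp36l1 passed in 5 of 16, and it did not pass when any single array was left out, with 75th percentile scaling, or with the replicate number or the slide as a fixed block. The Zfp36l1 difference thus kept its size and sign across these alternatives, while its call did not hold. The slide as a random block was fitted with a negative correlation within slides (-0.24). Since slides 2 and 3 hold 1 group each, this narrows the error of the difference. A pass in that fit is therefore not read as an adjustment for slide.

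**Figure D3:**
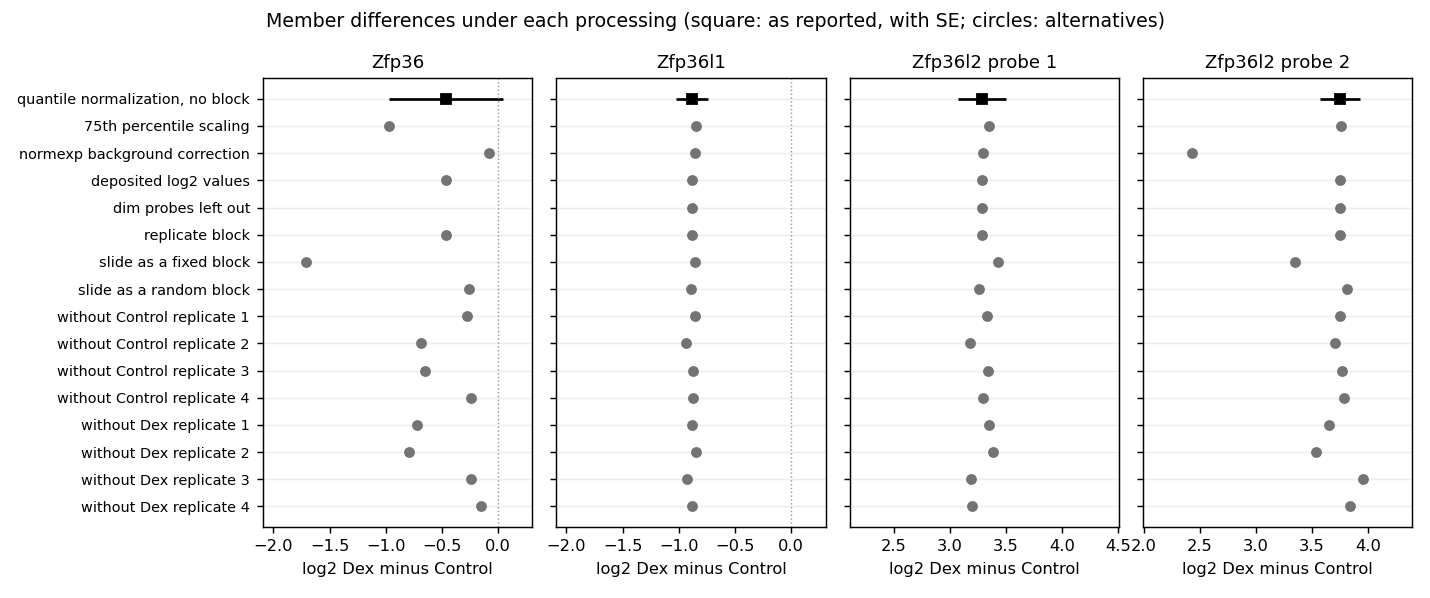
Log2 difference, Dex minus Control, of each family probe under the reported processing (square, with its SE) and under each alternative (circles), on axes of equal width. Zfp36l1 stays between -0.94 and -0.84 and Zfp36l2 probe 1 between 3.18 and 3.43, whereas Zfp36 spreads from -1.71 to -0.08 and probe 2 of Zfp36l2 drops to 2.43 under normexp background correction.

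The promoters of the members were read from RefSeq (GRCr8), which held a start site for all 3 genes, as the 250 bases before the start. Those of Zfp36 and Zfp36l2 are printed in full because both genes are compared for their response to a steroid whose receptor binds DNA. Capitals mark the GC box (GGGCGG), the CCAAT box (CCAAT), the TATA box (TATAAA) and the core of the glucocorticoid response element (AGAACA), each searched on both strands.
Zfp36, chr1:92799109-92799358, minus strand: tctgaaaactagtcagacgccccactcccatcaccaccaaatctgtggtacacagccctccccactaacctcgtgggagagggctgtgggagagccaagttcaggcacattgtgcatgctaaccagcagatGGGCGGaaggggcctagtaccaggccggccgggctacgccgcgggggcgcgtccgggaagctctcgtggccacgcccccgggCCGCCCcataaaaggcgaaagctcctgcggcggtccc
Zfp36l2, chr6:16242372-16242621, plus strand: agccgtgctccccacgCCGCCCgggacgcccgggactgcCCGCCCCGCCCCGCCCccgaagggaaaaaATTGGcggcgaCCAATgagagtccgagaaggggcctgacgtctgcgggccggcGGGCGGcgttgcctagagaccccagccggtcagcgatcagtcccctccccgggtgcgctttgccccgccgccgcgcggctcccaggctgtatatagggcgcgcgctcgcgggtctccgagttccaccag
The Zfp36l2 window, with a GC content of 73.6%, held 5 GC boxes, of which 3 overlap by single bases, and a pair of CCAAT boxes, which begin 182 and 171 bases before the start. The Zfp36 window (GC 65.2%) held GC boxes that begin 119 and 37 bases before the start. The Zfp36l1 window (GC 50.4%, chr6:104668691-104668940, minus strand) held a TATA box and a CCAAT box 54 and 49 bases before the start. It is not printed because it lies inside the span that RefSeq gives the gene. Among all 33469 promoter windows of this length 30.5% held a GC box, 34.0% a CCAAT box and 12.9% a TATA box. None of the 3 windows held the core AGAACA, which 17.5% of all windows held, nor the full element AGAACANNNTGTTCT, which 4 windows (0.0120%) held. These letters were searched in this window only, and sites further away were not searched.

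The genes whose profiles over the 8 arrays lay nearest to Zfp36l2 probe 1, among 13263 named probes well above background on every array, were Tsc22d3, Dusp1, Srebf1, Rpl10a-ps1 and Ddit4. The measure was the root mean square (RMS) difference of log2 signals after each probe was centered on its own mean, and it was 0.22, 0.26, 0.35, 0.39 and 0.41 in that order. Tsc22d3 encodes the glucocorticoid-induced leucine zipper, Dusp1 a phosphatase that inactivates p38 and other MAP kinases, Srebf1 a transcription factor of lipid synthesis and Ddit4 an inhibitor of mTOR signaling. Their own log2 differences were 3.54 for Tsc22d3, 3.05 for Dusp1, 3.34 for Srebf1 and 3.73 for Ddit4. Rpl10a-ps1, annotated on the array as similar to ribosomal protein L10a, had 2.96.

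The profiles nearest to Zfp36l1 were those of Csrp1, Bcl11b, Zbed4, Srsf2 and Rhot2, with RMS differences of 0.093, 0.094, 0.11, 0.11 and 0.12. Bcl11b is a transcription factor required for T cell commitment, Srsf2 a splicing factor and Rhot2 a mitochondrial GTPase. Their log2 differences ran from -0.99 for Srsf2 to -0.72 for Zbed4, with -0.87 for Bcl11b. Closeness over 8 arrays of 2 groups mostly reflects a difference of like size between the groups. No nearest profile is given for Zfp36, whose probe was not well above background on every array.

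**Figure D4:**
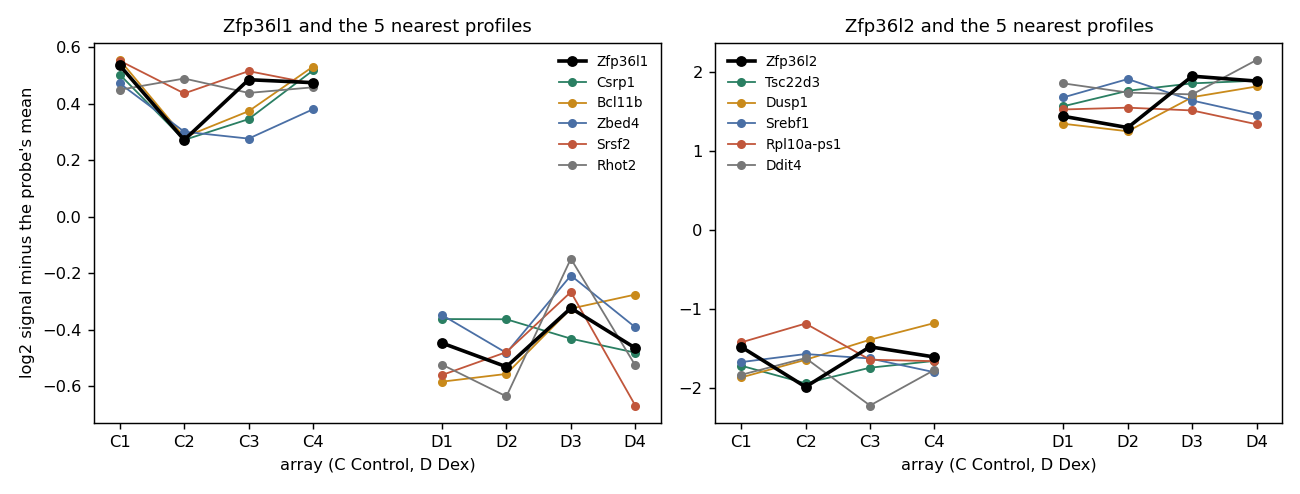
Log2 signal of Zfp36l1 and of Zfp36l2 probe 1 (black) and of the 5 genes with the nearest profile to each, centered on the mean of the probe over the 8 arrays, with lines joining the arrays of a group only to guide the eye. The genes near Zfp36l2 are about 3 to 4 log2 units higher in Dex, from 2.96 to 3.73, and those near Zfp36l1 are lower, from -0.99 to -0.72.

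The machinery with which the family works was followed in 5 lists of genes: other RNA-binding proteins that act on AU-rich or related elements, deadenylation, decapping with 5′ decay, the exosome, and the kinases, phosphatases and 14-3-3 proteins that regulate tristetraprolin. Of 93 listed genes 81 were on the array, each represented by its brightest probe. The lists were chosen with earlier results of these data known, so their shares are descriptions. Of the 81, 2 were called by limma (adjusted over all probes), or 2.47%, against 1.04% of the 15448 gene symbols on the array. Btg2 fell and Dusp1 rose, and with the replicate block Dusp1 alone was called. With these, 11 of the 81 (13.6%) had an unadjusted p under 0.05, against 1853 of the 15448 gene symbols (12.0%). The median log2 difference of the 81 genes was -0.10, with 29 higher and 52 lower in Dex, against a median of 0.01 over all gene symbols.

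Dusp1 removes the activating phosphates of p38, the kinase upstream of MK2. Its log2 signal was 7.83, 8.06, 8.31 and 8.52 in Control and 11.05, 10.95, 11.38 and 11.52 in Dex. Every Dex array was above every Control array, and the log2 difference was 3.05 (SE 0.21, limma adjusted p = 0.000927), or 8.26-fold. It passed the threshold in 14 of 15 alternatives, all but the slide as a fixed block. Of the 17 genes of its list on the array it was the only one called, and the list's median was -0.05. With Dusp1, 5 of the 17 (29.4%) had an unadjusted p under 0.05, 2 higher and 3 lower, against 12.0% of all gene symbols. The next largest differences of that list were Ywhaz, a 14-3-3 protein, at -0.63 (limma adjusted p = 0.33) and Mapkapk3, a kinase related to MK2, at 0.63 (limma adjusted p = 0.54), neither past the threshold. Normexp gave 0.13 for Mapkapk3, and the slide as a fixed block gave -0.17 for Ywhaz, which passed with the slide as a random block (limma adjusted p = 0.047, within a range of 0.047 to 0.90 over the alternatives).

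Btg2, an antiproliferative protein that binds the deadenylases of CCR4-NOT, gave 15.91, 16.19, 16.22 and 16.00 in Control and 14.80, 14.69, 15.18 and 15.06 in Dex. The groups did not overlap, and the difference was -1.15 (SE 0.17, limma adjusted p = 0.0294), or 2.22-fold lower in Dex. The call held in 5 of 15 alternatives and was lost with 75th percentile scaling, the slide as a fixed block, the replicate block (limma adjusted p = 0.13, within a range of 0.0027 to 0.77 over the alternatives) and 7 of the 8 arrays left out singly. Of the 19 deadenylation genes on the array Btg2 was the only one called (5.26%, against 1.04% of all gene symbols), and 3 (15.8%, against 12.0%) had an unadjusted p under 0.05, all lower in Dex. The list's median was -0.15. Tob1, a relative of Btg2 that links the deadenylase to target mRNAs, was at -0.70 (limma adjusted p = 0.70) and Pan3, of the second deadenylase complex, at -0.51 (limma adjusted p = 0.36). A second Pan3 probe, well above background on all arrays, was at -0.18 (limma adjusted p = 0.73). The Tob1 difference was -0.27 without Dex replicate 4 and -0.20 under normexp. Tob1 gave 5.73 and 6.29 in Dex replicates 1 and 2 but 4.71 and 3.84 in replicates 3 and 4.

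The other 3 lists had no called gene by limma. Among the 17 AU-rich element-binding and related proteins on the array none had an unadjusted p under 0.05 either, and the median difference was -0.07. Zfp36l3, in this list, had a difference of 0.17 (limma adjusted p = 0.89). The largest were Elavl4 at -0.94 (limma adjusted p = 0.71), Elavl3 at -0.67 (limma adjusted p = 0.73) and Khsrp, a decay-promoting protein, at 0.39 (limma adjusted p = 0.72). Single arrays moved each of them, to -0.39 for Elavl4 and -0.28 for Elavl3 without Dex replicate 2 and to 0.18 for Khsrp without Dex replicate 4. In all of them Dex replicates 1 and 2 lay below replicates 3 and 4. The log2 signals were 4.67 and 4.41 against 6.36 and 6.77 for Elavl3, and 5.42 and 4.62 against 7.94 and 6.95 for Elavl4. Khsrp gave 7.94 and 7.73 against 8.80 and 8.99. The other 3 probes of Elavl4 had differences of -0.04, -0.12 and 0.20. The differences of Elavl3 and Elavl4 turned positive with the slide as a fixed block, to 0.090 and 1.13. Of the 15 decapping and 5′ decay genes on the array, 2 (13.3%, against 12.0% of all gene symbols) had an unadjusted p under 0.05. The largest differences were Xrn1, the 5′ exonuclease, at -0.74 (limma adjusted p = 0.71), Limd1 at 0.67 (limma adjusted p = 0.76) and Ddx6, a helicase of P-bodies, at -0.57 (limma adjusted p = 0.16). Without Dex replicate 4 the difference was -0.22 for Xrn1 and 0.24 for Limd1, and normexp gave -0.17 for Xrn1. Limd1 also moved to 0.34 without Dex replicate 3 and to 1.10 without Dex replicate 2, and its other probe was at 0.30 (limma adjusted p = 0.84). Dex replicates 1 and 2 again lay apart from 3 and 4, at 5.42 and 5.69 against 4.36 and 3.07 for Xrn1. For Limd1 they were at 10.26 and 9.92 against 12.25 and 12.55. Ddx6 passed with normexp and with the slide as a random block (limma adjusted p = 0.021 and 0.023, within a range of 0.021 to 0.77 over the alternatives). Of the 13 exosome and Ski complex genes 1 (7.69%, against 12.0% of all gene symbols) had an unadjusted p under 0.05. None had a difference larger than 0.48 in size, the value of Skic3 (limma adjusted p = 0.63). Exosc7 was at -0.46 (limma adjusted p = 0.60) and Exosc6 at 0.43 (limma adjusted p = 0.39). Skic3 was at 0.28 without Dex replicate 2 and Exosc7 at -0.27 without Dex replicate 4. Skic3 gave 8.15 and 8.33 in Dex replicates 1 and 2 but 7.31 and 7.23 in replicates 3 and 4.

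Of 34 mRNAs known to carry AU-rich elements or to be targets of the family, 33 were on the array and 27 were well above background throughout the group in which they were brighter. limma called 3 of the 33, or 9.09%, of which 2 fell and 1 rose, against 1.04% of all gene symbols, and with the replicate block 0 were called. Over the list 14 genes were higher and 19 lower in Dex, and the median log2 difference was -0.04. Of the 33, 10 (30.3%) had an unadjusted p under 0.05, 4 higher and 6 lower, against 12.0% of all gene symbols. This list too was chosen with earlier results of these data known, so its shares are descriptions.

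Ccl3, a chemokine, gave 10.96, 11.30, 11.53 and 11.36 in Control and 9.69, 9.25, 8.71 and 9.06 in Dex, with no overlap. Its difference was -2.11 (SE 0.24, limma adjusted p = 0.00851), or 4.31-fold lower in Dex, and it passed in 12 of 15 alternatives. It was lost without Control replicate 4, with the slide as a fixed block and with the replicate block (limma adjusted p = 0.11, within a range of 0.0016 to 0.40). Ccl2, a chemokine for monocytes, gave 5.21, 6.24, 6.27 and 6.81 in Control and 4.38, 3.60, 2.70 and 2.89 in Dex, where 2 of 4 arrays measured it well above background. Its difference was -2.74 (SE 0.45, limma adjusted p = 0.0424) and was -0.78 under normexp, so its size rests on how signals near background are handled. It passed in 5 of 15 alternatives, and with 1 array left out only without Dex replicate 1. With the replicate block limma's adjusted p was 0.21, within a range of 0.0079 to 0.77.

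Vegfa, a vascular growth factor whose mRNA is a textbook target of tristetraprolin, rose. Its brightest probe gave 6.61, 6.57, 6.60 and 6.57 in Control and 7.47, 7.65, 7.47 and 7.96 in Dex. The difference was 1.05 (SE 0.16, limma adjusted p = 0.0312), or 2.07-fold. It passed in 4 of 15 alternatives, and in none of the 8 that left out an array. With the replicate block limma's adjusted p was 0.15, within a range of 0.0032 to 0.77. A dimmer Vegfa probe, also well above background on all arrays, had a difference of -0.05 (limma adjusted p = 0.97), so the probes of this gene disagree. Il10, an anti-inflammatory cytokine, had the third largest difference of the list, 1.65 (limma adjusted p = 0.11), with 3.02 to 3.97 in Control and 4.57 to 6.06 in Dex. Under normexp its difference was 0.37, and with the slide as a random block it passed (limma adjusted p = 0.014, within a range of 0.014 to 0.77 over the alternatives). Tnf and Notch1 are named for their known role as targets of tristetraprolin and of Zfp36l1 and Zfp36l2, respectively. Tnf had a difference of 0.32 (limma adjusted p = 0.61) and Notch1 one of 0.25 (limma adjusted p = 0.71), and in both the groups overlapped.

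Ccl2 and Ccl3 are also products of macrophages, so macrophage markers are given beside them. Of 11 markers on the array none was called by limma, 3 (27.3%, against 12.0% of all gene symbols) had an unadjusted p under 0.05, all higher in Dex, and the summed normalized signal was 4489 to 6193 in Control and 4367 to 8815 in Dex. This linear sum mostly follows Lyz2, with a mean log2 signal of 11.92 in Control and 12.12 in Dex. The next brightest marker, C1qb, had 8.49 and 9.32. Each of the 11 was well above background on at least 1 array, 7 were higher and 4 lower in Dex, and their differences ranged from -0.77 for Cd14 to 2.12 for Mrc1 (limma adjusted p = 0.56 and 0.087). The part of macrophages in the chemokine differences was not tested. Markers of B cells (3 on the array), neutrophils (5), stroma (9) and erythroid cells (3) likewise had no gene called by limma. Of the 9 stromal markers 1 (11.1%, against 12.0% of all gene symbols) had an unadjusted p under 0.05, and none of the other markers just named did.

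**Figure D5:**
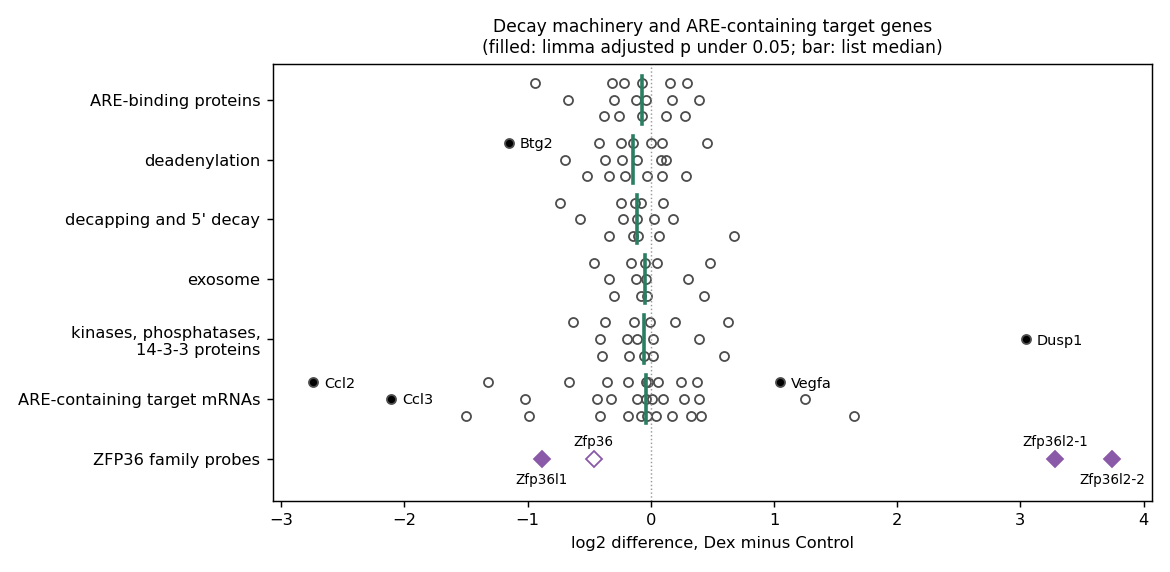
Log2 difference, Dex minus Control, of each gene of the 5 machinery lists and of the targets with AU-rich elements (circles, filled where limma's adjusted p is under 0.05, green bars for list medians), above the 4 ZFP36 family probes (diamonds, filled where called). Dusp1 at 3.05 lies near the Zfp36l2 probes, at 3.28 and 3.75, and the list medians lie between -0.15 and -0.04.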

How the data were processed

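The cRNA made from total RNA, named in the labels as 4 Control and 4 Dex replicates, was hybridized to Agilent Whole Rat Genome arrays with 1 color. The deposited scanner files hold the processed signal intensity of each spot, background-subtracted by the authors with Agilent Feature Extraction 9.5.3.1, with flags, and probe positions in build rn3. The deposited series table holds log2 values that the authors quantile normalized and summarized by median polish. From the intensity, outlier spots were removed and log2, quantile normalization and median polish were applied as in the methods, and the result correlated with the deposited log2 values at r of at least 0.999999 on every array. Groups followed the treatment label. Dex and Control were compared with limma 3.58.1 in R 4.3.3, two-sided, with Benjamini-Hochberg adjustment over 41012 probes at 0.05 and no block, with control spots left out. The script was tested on simulated data. The number of arrays limits the precision.

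Probes were named through RefSeq by accession (10735), by symbol (5512) or by synonym (3719), and 21046 kept only the name on the array. A gene was represented by its probe with the highest mean. Members and gene lists were chosen with earlier results of these data known. Named genes were all member probes, every listed gene that was called, the 3 largest differences of each list among genes measured well above background throughout their brighter group, and the 5 nearest profiles. Zfp36l3, Tnf, Notch1, Mrc1, Cd14, Lyz2 and C1qb were named besides.

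Same-numbered Control and Dex arrays deviated together from their group means (r = 0.40, 0.13, 0.55 and 0.18 for replicates 1 to 4), each over 0.1, although some differently numbered arrays did so as strongly (0.40 for Control replicate 1 with Dex replicate 2, 0.39 for Control replicate 3 with Dex replicate 4). The reported fit has no block, as in the methods, and a fit with the replicate block was an alternative, named where it changes a call. Other alternatives were 75th percentile scaling, normexp with an offset of 50, the deposited values, dim probes left out, the slide as a fixed or random block, each array left out, the probe of smallest p for each listed gene, and the methods' own signal to noise ratio (nominal p of 0.01, fold of 1.2, 70 assignments of the arrays).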

Additional observations from a re-analysis of the deposited data

Results flagged for a closer look

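In 3 of 46 groups of 4 arrays tested among the members and named genes, 1 array stood apart from the others of its group, where chance flags about 1 group in 20. None of the 3 concerns a family member. Elavl4 was at 7.999 on Control replicate 3 against 6.81 to 6.99 on the other Control arrays. Exosc6 was at 7.57 on Control replicate 3 against 7.67 to 7.69. Mapkapk3 was at 4.67 on Control replicate 4 against 3.95 to 4.01.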

How the results depend on the processing

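The probes called over the whole array, 319 as reported, were 166 with 75th percentile scaling, 915 with normexp, 562 with dim probes left out, 81 with the replicate block, 1 with the slide as a fixed block, 1838 with the slide as a random block, 2784 by the signal to noise statistic, and 100 (without Control replicate 4) to 245 (without Dex replicate 3) with 1 array left out. Of the family probes, 3 as reported, 2 were called with 75th percentile scaling, with the replicate block and with any 1 array left out, and 0 with the slide as a fixed block, where the Zfp36 difference was -1.71. Of the machinery genes, 2 as reported, 1 was called with 75th percentile scaling, 5 with normexp, 1 with the replicate block, 0 with the slide as a fixed block, 4 with the slide as a random block, 9 by the signal to noise statistic, and 1 to 2 with 1 array left out. Of the targets, 3 as reported, 1 was called with 75th percentile scaling, 0 with the replicate block, 0 with the slide as a fixed block, 7 with the slide as a random block, 8 by the signal to noise statistic, and 0 (without Control replicate 4) to 2 with 1 array left out. With the slide as a fixed block, Elavl3 turned to 0.090, Elavl4 to 1.13, Pan3 to 0.024, Skic3 to -0.0011 and Mapkapk3 to -0.031, none past the threshold. That fit rests on the single pair of arrays that share a slide. The random block fit used a correlation within slides of -0.24, which narrows the error where a slide holds 1 group. Its larger counts are therefore not an adjustment for slide. The Zfp36l1 and Zfp36l2 probe 1 differences moved by less than the spread between arrays in all 15 alternatives that gave them. Dim signals limit Zfp36, which has no value where dim probes are left out. The causes of these changes were not tested.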
